A study of Mus musculus with 6 samples.

Results

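Most of the genes described here encode molecular chaperones and their helpers: heat shock proteins, J-domain proteins, chaperonin and prefoldin subunits, Bag co-chaperones, prolyl isomerases and disulfide isomerases. All were chosen by gene name alone, so a few, such as Tcp11l2, match only by their letters. The rule took symbols beginning with Hsp, Dnaj, Cct, Bag, Fkbp, Ppi, Pfdn, Pdia or Tcp1, without Dnajb9, Dnajc3, Ppib and pseudogene symbols ending in -ps. The table held 44 such genes among 13685 rows, while 133 genes of the mouse annotation pass the same rule, so well-known members such as the cytosolic Hsp90 genes are not analysed here. RNA was sequenced from WT C57BL/6 mouse CD4+ T cells of the spleen and mesenteric lymph node, cultured without their CD25-positive fraction at 1000000 cells per well for 4 h. One group of 3 libraries came from cells given tunicamycin at 0.15 µg/mL, and the other group of 3 from untreated cells, which received vehicle per the labels' protocols. Since the replicates are labelled as technical, a p-value below reflects variation among libraries and not among mice, whose number, age and sex the labels do not state.

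Chaperones bind proteins that have not reached their folded shape and either hold them or help them fold. Hsp70 proteins do so in cycles of ATP hydrolysis that J-domain proteins start and nucleotide exchange factors such as the Bag proteins end, while chaperonins enclose their clients in a chamber. Tunicamycin blocks the first step of N-linked glycosylation in the endoplasmic reticulum (ER), and the unfolded protein response that follows raises ER chaperones, whereas unfolded protein in the cytosol raises heat shock genes through the transcription factor Hsf1. The comparison therefore sets cytosolic, mitochondrial and nuclear chaperones beside those of the ER after a treatment that acts in the ER.

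Summed estimated counts of the rows ran from 7412151 to 9495725 in the vehicle libraries and from 10584276 to 11211270 in the tunicamycin libraries. Of 11 listed markers of CD4+ T cells, 6 had a row (Cd3d, Cd3e, Cd5, Cd28, Thy1 and Trbc2), and their summed level was 2620 to 2833 TPM (the deposited measure of level, scaled for transcript length and library) in vehicle and 2717 to 2908 TPM in tunicamycin libraries, while Cd4 itself is not analysed here. Plasma cell markers (4 of 6 listed) summed to 21.4 to 184 and 26.1 to 191 TPM, and NK cell markers (5 of 8) to 51.2 to 71.6 and 68.9 to 88.6 TPM. Cd8b1 of CD8 T cells was at 9.47 to 10.8 TPM in vehicle and 10.5 to 11.9 TPM in tunicamycin libraries. Il2ra, which encodes CD25, was at 6.87 to 8.41 and 7.74 to 14.05 TPM. B cell markers (2 of 6) were at or below 1.14 TPM in every library, and Ly6g of neutrophils was at 0. No marker of any list passed the test below, and the part of other cells in the chaperone values was not tested.

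No chaperone gene changed past the test. Of the 44 genes, 8 were at 0 in every library, a further 8 had too few counts to test, and 28 were tested with edgeR among 3613 genes. At an adjusted p under 0.05, 0 of the 28 were higher with tunicamycin, against 0.0554% of all genes tested, and 0 were lower, against 0.0277%. DESeq2 on the counts and limma on log2(TPM + 1) also called 0 members. At an unadjusted p under 0.05 edgeR gave 2 members (7.14%), Dnaja2 and Cct2, against 6.42% of all genes, a share near the background. The median log2 fold change of the 28 tested genes was -0.06, with 11 above 0 and 17 below, and over all genes it was 0.00, with 1810 above and 1803 below. Only genes that passed a filter on low counts enter these numbers. RNA came from bulk cells, so fewer cells of a type and less RNA per cell cannot be told apart.

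The data bound most of these differences closely. The 95% interval of the fold change lay within 1.5-fold in either direction for 18 of the 28 tested members (64.3%), against 52.8% of all genes tested. Well-counted genes are those averaging 5 log2 CPM or more, where CPM is the count scaled to the library's total with TMM factors. Among them the interval lay within 1.5-fold for 18 of 20 members (90.0%), against 93.8% of 1912 genes. The exceptions among these 20 were Ppic and Hspa1b, whose intervals reached -0.665 and 0.68 on the log2 scale. The remaining 8 tested members had fewer counts, and a 1.5-fold difference lay inside their intervals.

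**Figure D1:**
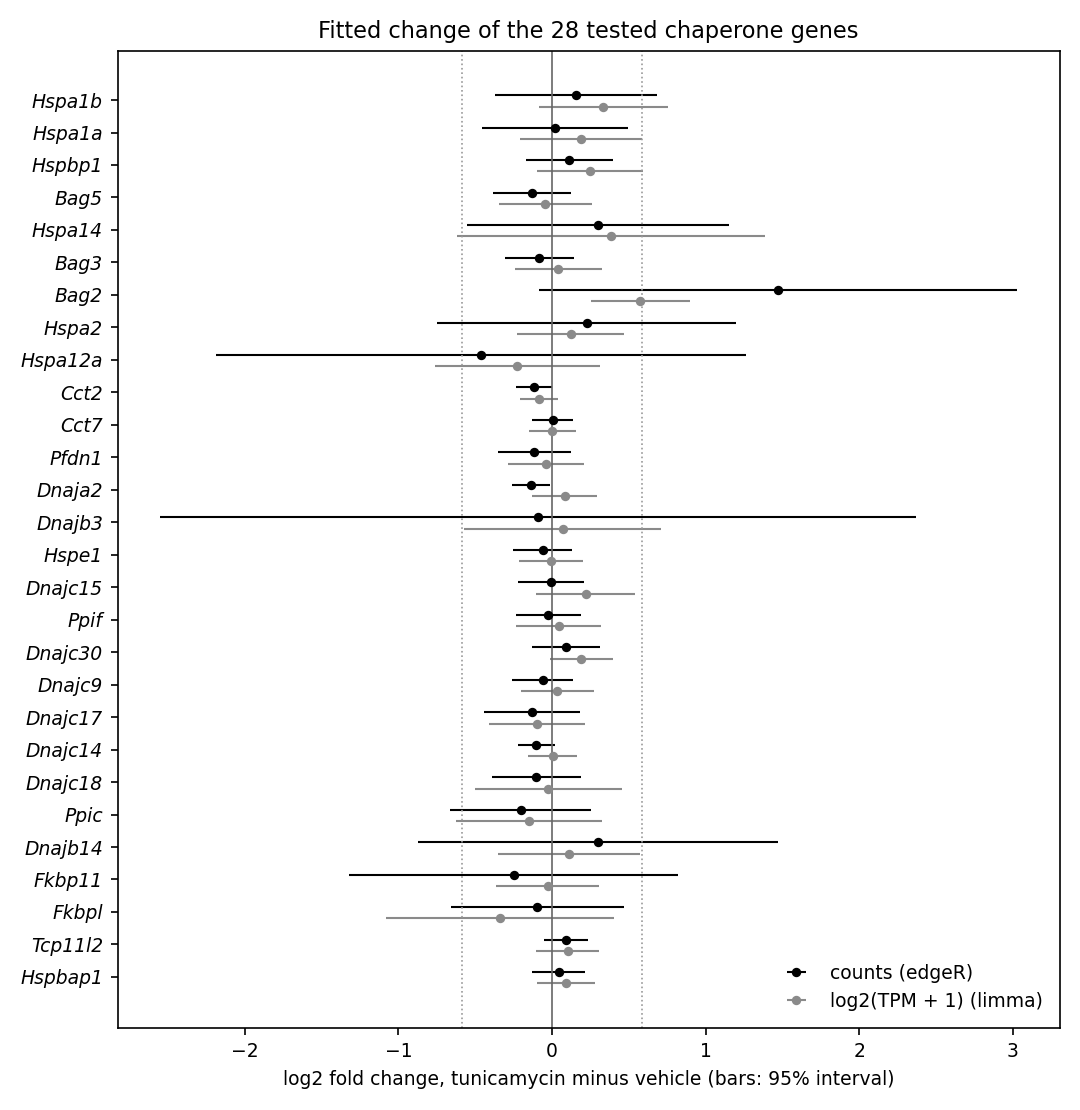
Log2 fold change (horizontal axis, tunicamycin minus vehicle) with its 95% interval for the 28 tested chaperone genes, grouped by compartment. Black marks the edgeR fit on counts and grey the limma fit on log-scaled TPM. Dotted lines mark a 1.5-fold change in either direction. Intervals from edgeR are narrow for well-counted genes such as Cct7 (-0.13 to 0.14) and wide for Bag2 (-0.09 to 3.03). No gene shown passed the adjusted threshold in either fit.

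Levels per transcript length, in TPM, spanned a wide range. Cct2 had the highest level, 254 to 287 TPM over the 6 libraries, followed by Hspe1 at 166 to 200.0 TPM. Dnaja2 (120.2 to 150.4 TPM) and Cct7 (124 to 143 TPM) came next and overlapped each other, as did Dnajc9 (73.3 to 96.4 TPM) and Tcp11l2 (75.7 to 90.5 TPM) below them. All members together summed to 1192 ± 14.8 TPM in vehicle and 1209.9 ± 27.2 TPM in tunicamycin libraries (SD, n = 3 each), a difference within the spread between libraries. Per library the sums were 1176, 1193 and 1206 TPM in vehicle and 1182, 1236 and 1212 TPM with tunicamycin, so the groups overlapped.

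**Figure D2:**
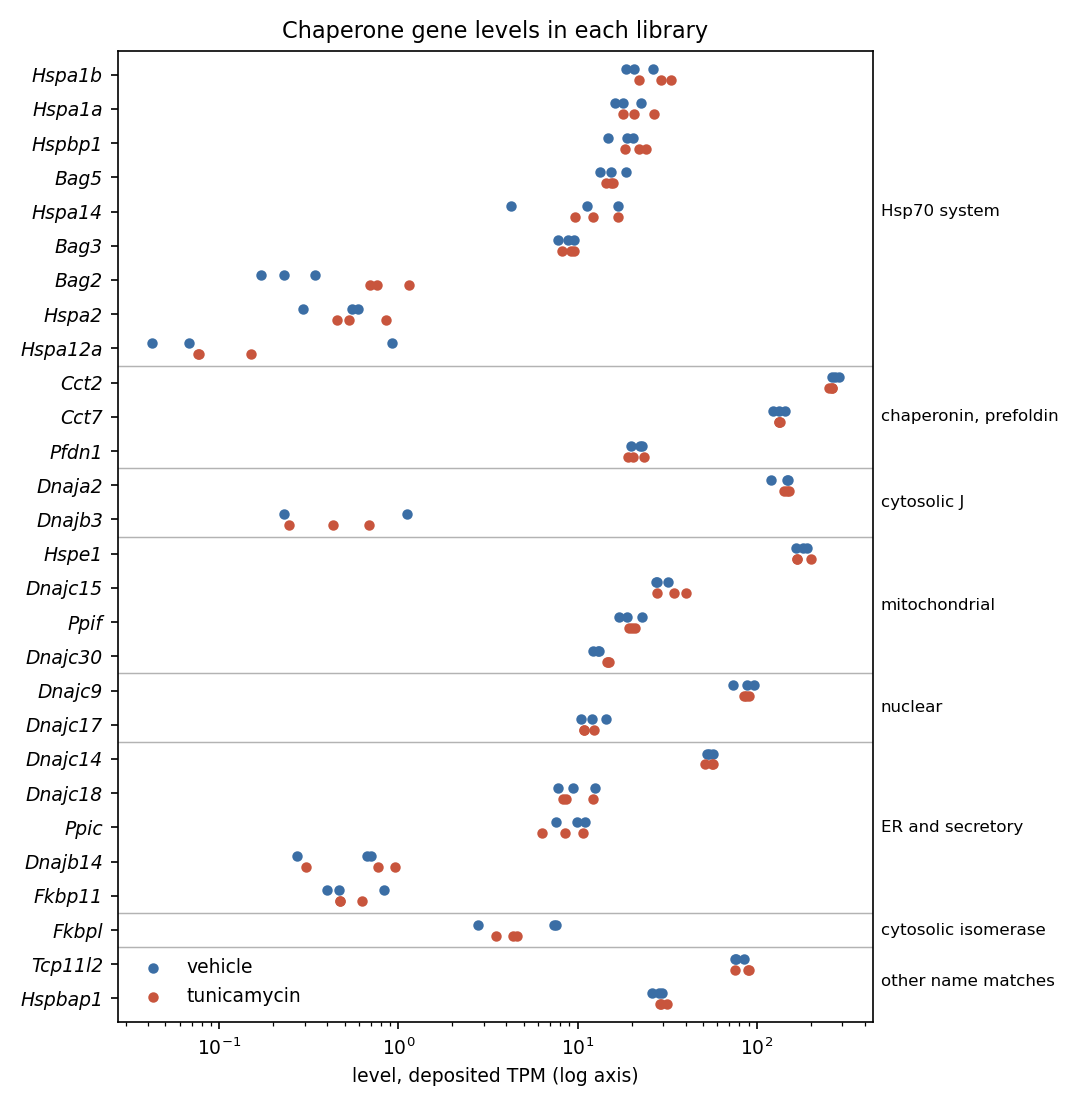
TPM level of the 28 tested chaperone genes in each library (horizontal log axis), grouped by compartment and ordered by level within it, with vehicle points in blue and tunicamycin points in red; a library at 0 has no point on a log axis. Cct2 lies above all others (254 to 287 TPM), and the groups overlap for every tested gene but Cct2, Dnajc30 and Bag2. The share of all genes tested whose groups do not overlap in TPM was not counted.

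Hspa1a and Hspa1b encode the stress-inducible cytosolic Hsp70 and are the classic targets of the heat shock response. They are neighbouring single-exon genes on the minus strand of chromosome 17 (GRCm38), Hspa1a at chr17:34969190-34972156. Of the 31-base words of Hspa1a's transcript, 63.8% also occur in Hspa1b, and 67.6% of those of Hspa1b occur in Hspa1a, so the split of reads between them is uncertain. Their starts are alike as well: the 250 bases upstream are identical at 247 positions (98.8%). Both windows, from RefSeq on GRCm38.p6, are shown because both hold the same match to a heat shock element, the site bound by Hsf1; capitals mark this match, GAAGATTC, which has 2 units of the element and begins 104 bases upstream of the start. Hspa1a is read from chr17:34972157-34972406 and Hspa1b from chr17:34959239-34959488, both on the minus strand, and a stretch of the Hspe1 promoter, chr1:55088053-55088082 on the plus strand, is shown beside them because Hspe1 was the only member with 3-unit matches: its capitals, beginning 89 bases upstream, are a run of 4 alternating units that holds 2 overlapping 3-unit matches.
Hspa1a: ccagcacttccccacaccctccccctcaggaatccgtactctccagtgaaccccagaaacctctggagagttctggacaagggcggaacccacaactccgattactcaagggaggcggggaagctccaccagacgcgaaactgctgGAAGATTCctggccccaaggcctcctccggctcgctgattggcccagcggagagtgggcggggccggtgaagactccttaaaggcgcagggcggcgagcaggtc
Hspa1b: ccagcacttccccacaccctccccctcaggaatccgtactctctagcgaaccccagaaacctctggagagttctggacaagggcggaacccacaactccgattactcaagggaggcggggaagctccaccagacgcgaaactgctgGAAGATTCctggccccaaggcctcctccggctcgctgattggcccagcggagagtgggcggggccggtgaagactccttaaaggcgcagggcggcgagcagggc
Hspe1: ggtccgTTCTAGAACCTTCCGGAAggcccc

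The element was searched on both strands in windows from 250 bases before to 50 after each start, as 2 units (GAANNTTC or TTCNNGAA) and as 3 units, the same letters followed by NN and a further GAA or TTC in alternation, so every 3-unit match also counts as a 2-unit match. A RefSeq window was matched for 38 of the 44 genes. The 2-unit form was in the windows of 10 of these 38 genes (26.3%), against 17.0% of all genes with a window: Bag3, Cct2, Cct8l1, Dnajc5g, Hspa1a, Hspa1b, Hspb3, Hspb8, Hspe1 and Tcp11l2. The 3-unit form was in 1 of the 38, Hspe1 (2.63%), against 0.662% of all genes with a window. The ER stress response element, CCAAT and CCACG with 9 bases N between them, was in no member, against 0.137% of all genes with a window. TGACGTGG, the core of the unfolded protein response element, was in 1 member, Fkbp1b (2.63%), against 0.714% of all genes with a window. These matches describe letters only.

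Neither inducible Hsp70 gene passed the test. Hspa1a was at 16.2, 17.9 and 22.5 TPM in vehicle replicates 1 to 3 and at 17.9, 20.8 and 26.5 TPM in tunicamycin replicates 1 to 3. Hspa1b was at 18.7, 20.7 and 26.5 TPM in vehicle and at 21.9, 29.2 and 33.2 TPM with tunicamycin. Replicate 3 was the highest library of each group for both genes, and the groups overlapped. In each same-numbered pair the tunicamycin library was the higher for both genes, though no label says that the numbers pair libraries. The test here has no replicate block, and the fit with a block is given with the alternatives. From the counts, the log2 fold change was 0.02 (95% interval -0.45 to 0.49, adjusted p 0.99, edgeR) for Hspa1a and 0.155 (-0.37 to 0.68, adjusted p 0.96, edgeR) for Hspa1b. Summing both genes, a step added after seeing the data, avoids that uncertain split: the sum was 608.7 ± 122 CPM in vehicle and 649.0 ± 126 CPM with tunicamycin (SD, n = 3 each). The log2 fold change of the sum was 0.09 (-0.44 to 0.62, adjusted p 0.97, edgeR).

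The other cytosolic Hsp70 genes and the co-chaperones that act on Hsp70 gave no call either. The whole group, Hspa1a and Hspa1b included, had 10 genes, of which 9 were tested, 6 above 0 and 3 below, with a median log2 fold change of 0.11. The summed level of the whole group was 93.8, 93.2 and 98.7 TPM in vehicle and 96.6, 110.6 and 122.8 TPM with tunicamycin, so tunicamycin replicate 1 lay within the vehicle range. Hspbp1, a nucleotide exchange factor of Hsp70, was at 18.9, 14.8 and 20.4 TPM in vehicle and at 21.9, 18.4 and 24.2 TPM with tunicamycin, and the groups overlapped. Its log2 fold change was 0.11 (-0.17 to 0.39). Bag5, a Bag-domain co-chaperone of Hsp70, was at 18.7, 13.4 and 15.3 TPM in vehicle and at 15.4, 14.3 and 15.7 TPM with tunicamycin, with the vehicle values enclosing those of tunicamycin.

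The remaining genes of this group are named after their values were seen. Bag3, which links Hsp70 to autophagy and is itself a target of the heat shock response, was at 9.51, 7.81 and 8.79 TPM in vehicle and at 8.14, 9.22 and 9.56 TPM with tunicamycin, with overlap and a log2 fold change of -0.08 (-0.31 to 0.14). Bag2, a co-chaperone that restrains client ubiquitination by the ligase Chip, had the largest fold change of the 28 tested members and few counts: 8, 4 and 18 in vehicle and 43, 51 and 17 with tunicamycin. As CPM these were 1.07, 0.533 and 1.96 against 4.04, 4.47 and 1.54, so tunicamycin replicate 3 lay below vehicle replicate 3. On the TPM scale the groups did not overlap, 0.171, 0.230 and 0.342 TPM against 0.697, 1.14 and 0.760 TPM. The log2 fold change of Bag2 from counts was 1.47 (-0.09 to 3.03, adjusted p 0.79, edgeR). From log2(TPM + 1) it was 0.575 (0.25 to 0.90, unadjusted p 0.0037, adjusted p 0.37, limma). This was the lowest p of the tested members in the limma fit, where the share of all genes at an unadjusted p under 0.05 was not counted.

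Hspa14, a ribosome-associated Hsp70 relative, varied widely among libraries, from 4.25 TPM in vehicle replicate 3 to 16.9 TPM in tunicamycin replicate 2. It shares 7.3% of its 31-base words with Gm45902, a gene that overlaps it on the same strand, so its values are uncertain. Hspa2, best known from spermatogenesis, was at 0.294 to 0.591 TPM in vehicle and 0.455 to 0.850 TPM with tunicamycin. Hspa12a, a distant Hsp70 relative, was at 0.920 TPM in vehicle replicate 2 and at or below 0.150 TPM elsewhere. Hspa1l, a testis-type Hsp70, had 14 counts in vehicle replicate 2 and at most 9 in any other library, and was not tested. Of its 31-base words 14.6% occur in Hspa1a, so its few counts are uncertain too.

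Of 14 listed chaperonin and prefoldin subunits, which fold actin and tubulin, 3 had a row and were tested, 1 above 0 and 2 below. Their summed level averaged 430.2 TPM in vehicle and 413.6 TPM with tunicamycin, the highest of the member lists. This order counts only genes with a row, which were 10 of 20 in the cytosolic Hsp70 and Bag list, so it does not rank the whole families. Cct2, the beta subunit of the CCT chaperonin, was at 1369, 1404 and 1356 CPM in vehicle and at 1304, 1211 and 1290.0 CPM with tunicamycin. Every tunicamycin library lay below every vehicle library, on the TPM scale too (275, 287 and 264 against 262, 254 and 261 TPM). Its log2 fold change was -0.12 (-0.23 to -0.003, unadjusted p 0.045, adjusted p 0.72, edgeR). Cct7, the eta subunit of the same ring, was at 124, 143 and 133 TPM in vehicle and at 134, 134 and 132 TPM with tunicamycin, a log2 fold change of 0.00 (-0.13 to 0.14). Whether the 2 subunits differ in their response was not tested. Pfdn1, a prefoldin subunit that hands clients to CCT, was at 22.7, 22.4 and 19.7 TPM in vehicle and 23.6, 19.2 and 20.5 TPM with tunicamycin, and the groups overlapped.

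Among the 28 tested members, the CPM of the groups did not overlap for 3 (10.7%), against 12.6% of all genes tested, again near the background: Dnaja2, Cct2 and Dnajc14, all lower with tunicamycin. In TPM the groups did not overlap for 3 as well, Cct2, Dnajc30 and Bag2. The share of all genes was not counted in TPM, so separation on that scale, wherever given, has no background beside it. Dnaja2, a J-domain co-chaperone of cytosolic Hsc70 on chromosome 8, was at 820.4, 733 and 820.4 CPM in vehicle and at 723, 724 and 709 CPM with tunicamycin. Its log2 fold change was -0.14 (-0.26 to -0.01, unadjusted p 0.033, adjusted p 0.70, edgeR), the lowest p of the tested members in this fit. In TPM the sign was the other way and the groups overlapped, 149, 120.2 and 146 TPM in vehicle against 141, 150.4 and 147 TPM with tunicamycin, with 0.08 (-0.13 to 0.29) on the log2(TPM + 1) scale. Direction for Dnaja2 therefore differed between these 2 fits, which differ in scaling as well as in unit. TMM factors scaled the counts, and no such factor was applied to the TPM. From counts without TMM factors the log2 fold change of Dnaja2 was -0.097. With TMM and effective-length offsets it was 0.016 (adjusted p 0.98, edgeR). Of the other J-domain genes assigned to the cytosol, Dnajb3 had 0 to 30 counts, lies inside the Ugt1a cluster on the opposite strand and was at 0 in vehicle replicate 3, while Dnajb7, Dnajb8 and Dnajc5g, genes known mainly from testis, were at 0 in every library.

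**Figure D3:**
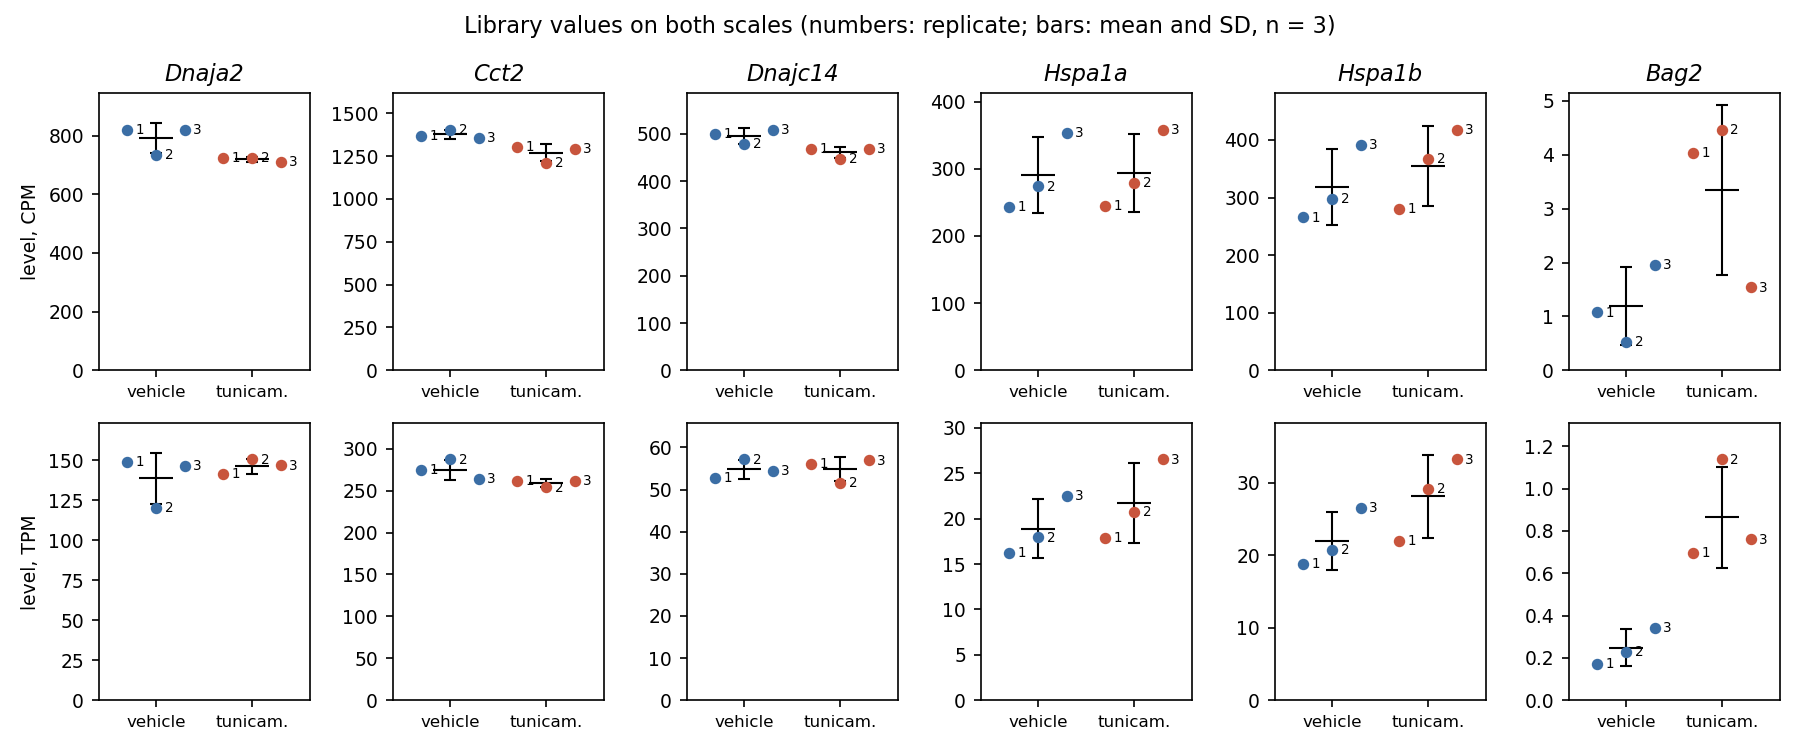
Values of 6 chaperone genes in each library, as CPM (upper row) and TPM (lower row), with replicate numbers, the mean and the SD (n = 3). Dnaja2 separates the groups in CPM (709 to 724 below 733 to 820.4) and not in TPM, Bag2 does so in TPM and not in CPM, and Hspa1a and Hspa1b overlap on both.

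Mitochondrial chaperones gave 4 tested genes, 1 above 0 and 3 below, with a median log2 fold change of -0.015 and all 4 intervals within 1.5-fold. Hspe1, the Hsp10 lid of the mitochondrial Hsp60 chamber, is the gene whose run of 4 units is shown above. It was at 166, 190 and 182 TPM in vehicle and 167, 200.0 and 169 TPM with tunicamycin, with overlap and a log2 fold change of -0.06 (-0.25 to 0.13). Of its 31-base words 24.8% occur in other genes, so its level is less certain than that of Cct2. Dnajc15, a J-domain protein of the inner membrane, was at 31.9, 27.4 and 27.7 TPM in vehicle and at 34.6, 40.2 and 27.8 TPM with tunicamycin. Counts gave it a log2 fold change of -0.01 (-0.22 to 0.21) and TPM 0.22 (-0.10 to 0.54). Dnajc30, which associates with ATP synthase, was at 12.2, 13.0 and 13.2 TPM in vehicle and at 14.9, 14.6 and 14.7 TPM with tunicamycin; these did not overlap, while its CPM did (70.3 to 79.8 against 78.2 to 82.1). The limma test on log2(TPM + 1) gave Dnajc30 0.19 (-0.015 to 0.39, adjusted p 0.65). Ppif, the cyclophilin D that regulates the permeability transition pore, was at 17.0 to 23.0 TPM in vehicle and 19.3 to 20.9 TPM with tunicamycin.

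Nuclear members were Dnajc9, a histone chaperone, and Dnajc17, a J-domain protein linked to splicing. Dnajc9 was at 87.7, 73.3 and 96.4 TPM in vehicle and at 90.3, 86.6 and 85.1 TPM with tunicamycin, all within the vehicle range. Dnajc17 was at 12.1, 10.4 and 14.3 TPM in vehicle and at 12.3, 10.9 and 10.8 TPM with tunicamycin, again inside that range, and it shares 25.0% of its 31-base words with Gm6257. Their log2 fold changes were -0.06 (-0.26 to 0.135) and -0.13 (-0.44 to 0.18).

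In the ER, where tunicamycin acts, 7 members had a row and 5 were tested, 1 above 0 and 4 below, with a median log2 fold change of -0.105 and no call. Their summed level was 75.4 ± 4.51 TPM in vehicle and 74.3 ± 2.35 TPM with tunicamycin (SD, n = 3 each), which overlapped. The ER chaperones best known as targets of the unfolded protein response, such as Hspa5, are not analysed here. Dnajc14, a J-domain protein of the ER membrane, was at 499, 478 and 509 CPM in vehicle and at 468, 447 and 468 CPM with tunicamycin. No tunicamycin library reached the vehicle range, by a log2 fold change of -0.105 (-0.225 to 0.02, adjusted p 0.84, edgeR). In TPM its groups overlapped, 52.8, 57.1 and 54.4 against 56.2, 51.7 and 56.9 TPM. Dnajc18, a membrane-bound J-domain protein, was at 7.75, 12.4 and 9.42 TPM in vehicle and at 8.27, 12.2 and 8.56 TPM with tunicamycin.

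Ppic, the secretory-pathway cyclophilin C, had the lowest log2 fold change among well-counted members and a wide spread. It was at 11.02, 9.90 and 7.59 TPM in vehicle and 10.7, 6.36 and 8.53 TPM with tunicamycin, which overlapped. Its log2 fold change from the counts was -0.205 (-0.665 to 0.26). With 1 library left out it ran from -0.41 (without tunicamycin replicate 1) to -0.02 (without tunicamycin replicate 2). Dnajb14, an ER-membrane J-domain protein, was at 0.271 to 0.698 TPM in vehicle and 0.306 to 0.954 TPM with tunicamycin. The other ER members are named after their values were seen. Fkbp11, an ER prolyl isomerase abundant in secretory cells, was at 0.397 to 0.827 TPM in vehicle and at 0.474 to 0.624 TPM with tunicamycin. Pdia5, a disulfide isomerase, had 9, 2 and 13 counts in vehicle and 6, 0 and 0 with tunicamycin, and Fkbp9 had 5 counts in tunicamycin replicate 2 and 0 elsewhere; neither was tested.

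Of 8 listed small heat shock proteins, which hold unfolded proteins without ATP, 5 had a row, and these were near or at 0. Hspb2, Hspb3 and Hspb8 were at 0 in every library, which allows up to 0.263 to 0.403 CPM per library (3 counts, counting error only). Hspb7 had at most 5 counts and Hspb9 at most 7 in any library. Of 11 listed cytosolic prolyl isomerases only 2 had a row, so the level of this family is not shown here. Fkbpl, an immunophilin-like partner of Hsp90, was at 2.80, 7.34 and 7.58 TPM in vehicle and 4.59, 4.34 and 3.495 TPM with tunicamycin. Fkbp1b had 5 counts in 1 library. The name rule also took in genes that were placed in none of the lists above. Of these, Tcp11l2 and Tcp11x2 match only because their symbols begin with the letters Tcp1. Tcp11l2 was at 76.9, 75.9 and 84.4 TPM in vehicle and 75.7, 89.1 and 90.5 TPM with tunicamycin, with overlap and a log2 fold change of 0.09 (-0.05 to 0.24). Hspbap1, a protein that binds a small heat shock protein, was at 26.0, 29.4 and 28.5 TPM in vehicle and at 29.0, 29.1 and 31.5 TPM with tunicamycin. Ppil6 had 5, 0 and 5 counts in vehicle and none with tunicamycin, Cct8l1 had 1 count in all, and Dnajc22 and Tcp11x2 were at 0.

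Chaperone partners outside the name rule gave no call either. Of 10 such co-chaperones, all tested, edgeR called 0 at an adjusted p under 0.05, as did DESeq2 and limma, and 1 had an unadjusted p under 0.05 by edgeR, where 6.42% of all genes did. The genes of this and the next list are named after their values were seen. The 1 gene was Tbca, a tubulin-folding cofactor that receives tubulin from CCT, at 341, 291 and 338 TPM in vehicle and 262, 252 and 277 TPM with tunicamycin. Its TPM values did not overlap between groups, while its CPM did (285 to 359.8 in vehicle against 260.0 to 297 with tunicamycin). The log2 fold change of Tbca from counts was -0.235 (-0.43 to -0.04, adjusted p 0.63, edgeR). Of the 10, 2 lay above 0 and 8 below, with a median of -0.07. Clpp, the mitochondrial matrix protease that degrades unfolded proteins, was at 20.4, 16.1 and 21.3 TPM in vehicle and 29.9, 21.6 and 25.1 TPM with tunicamycin. Every tunicamycin library of Clpp was the higher in TPM, while its CPM overlapped, and its log2 fold change was 0.295 (-0.02 to 0.61) from counts and 0.385 (unadjusted p 0.035, adjusted p 0.58, limma) from log2(TPM + 1). Ahsa1, the activator of the Hsp90 ATPase, had -0.16 (-0.35 to 0.04). Of 5 listed heat shock factors and targets of protein-damaging stress with a row, 4 were tested and edgeR, DESeq2 and limma called 0, with 0 at an unadjusted p under 0.05 by edgeR. Ubb, a stress-inducible polyubiquitin gene, was at -0.07 (-0.20 to 0.05), Hsf2, a heat shock factor, at 0.11 (-0.17 to 0.40), and Hmox1, the heme oxygenase induced by oxidative stress, at -0.21 (-0.73 to 0.30).

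Counts and TPM gave different fold changes for several members. For 19 of the 20 well-counted members the log2 fold change was higher from log2(TPM + 1) than from counts, as it was for 79.6% of all 1912 such genes, with a median shift of 0.08 for the members and 0.06 for all. The median of the 28 tested members was -0.06 from counts and 0.04 from TPM, and 7 of the 28 changed sign. The 2 fits also differ in scaling, as TMM factors were applied to the counts and no such factor to the TPM. Without TMM factors the median of the tested members from counts was -0.018. How much of the shift comes from scaling was not tested. The ratio of count to TPM, a measure of effective transcript length set relative to each library's median gene, was 2.56, 2.52 and 2.51 for Hspa1a in vehicle and 2.32, 2.34 and 2.27 with tunicamycin. For Hspa1b it was 2.41, 2.38 and 2.37 against 2.16, 2.19 and 2.11. Both are annotated with a single transcript, and for both the groups did not overlap. The ratio separated the groups for other members too, such as Dnaja2, Dnajc30 and Bag3 (1.97, 1.94 and 1.92 against 1.85, 1.86 and 1.81). Dnajc30 and Bag3 also have a single transcript, as does Ppic, for which the groups overlapped. The share of all genes whose groups separate in this ratio was not counted. On the log2 scale this ratio differed (tunicamycin minus vehicle) by -0.13 for Hspa1a, -0.145 for Hspa1b and -0.17 for Dnaja2, where the 5th and 95th percentiles over 3610 genes were -0.17 and 0.22.

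**Figure D4:**
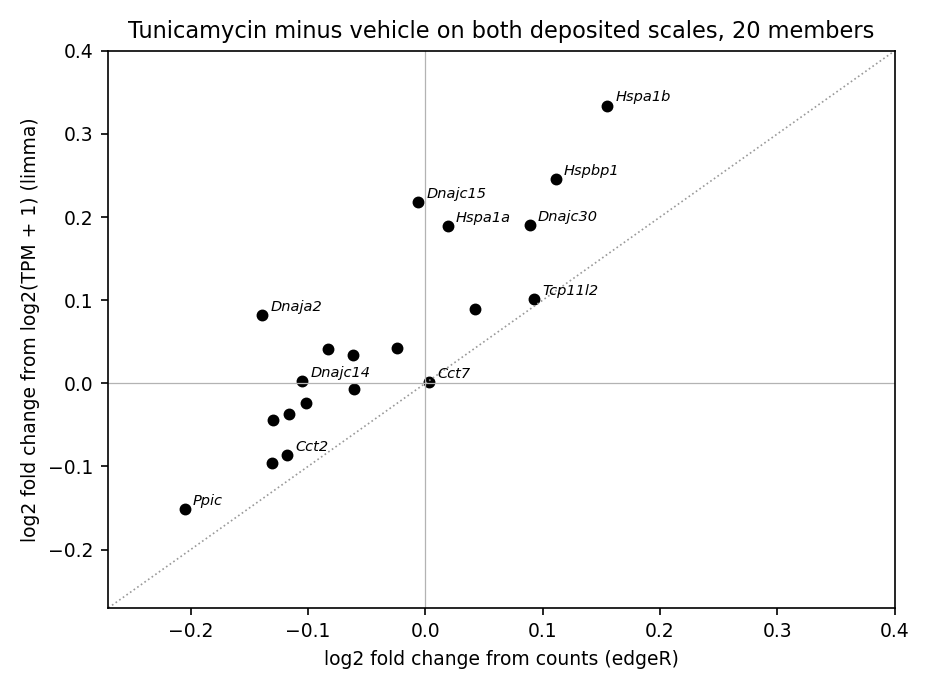
Log2 fold change from counts (horizontal axis, edgeR) against that from log2(TPM + 1) (vertical axis, limma) for the 20 well-counted members, with the line of equality dotted; selected genes are labelled. All but 1 of the points lie above the line. Dnaja2 (-0.14 and 0.08) and Dnajc15 (-0.01 and 0.22) have opposite signs on the 2 axes, as do Dnajc14, Bag3, Dnajc9 and Ppif.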

How the data were processed

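Total RNA, 200 ng per library, was sequenced as 150 bp pairs, per the labels' protocols. The authors deposited estimated counts per gene and, for the same rows, TPM; Salmon, DESeq2, bcl2fastq and the build GRCm39 are named in the submitters' processing notes, without a version or role. The sources used here do not give the annotation behind these values or the step from transcripts to genes. Of 13685 rows, 6932 were at 0 in every library, and symbols were matched for 13627. Positions and transcripts are from GENCODE M21 on GRCm38 and promoters from RefSeq on GRCm38.p6; nothing was converted to GRCm39.

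The deposited estimated counts were rounded to whole numbers; edgeR 4.0.16, run in R 4.3.3, tested them (filterByExpr, TMM scaling, robust 2-sided quasi-likelihood F test, Benjamini-Hochberg adjustment over 3613 genes, threshold 0.05). Log2 CPM used a prior count of 2. The deposited TPM were tested with limma 3.58.1 on log2(TPM + 1), without TMM or other rescaling. Such a fold change understates the change of low genes. Alternatives were DESeq2 1.42.0, other scalings, filters and pseudocounts, effective-length offsets, a replicate block and leaving out each library. The fit was checked on simulated counts. Summed counts cover the rows analysed here and are not library depths; for well-counted genes (mean log2 CPM of 5 or more) the 95% interval reached a median of 0.20 log2 units to either side, and for members of that level 0.22.

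The members and lists were chosen with earlier results of these data known. Genes named were the 4 of highest TPM in each compartment list, members with an unadjusted p under 0.05 and groups that do not overlap, the largest rises and falls among well-counted members, and the widest spread within a group; any other, including genes at 0 and those of the co-chaperone and stress lists, was picked with its values in view. Compartments were assigned from textbook knowledge. No label says that replicate numbers pair libraries across groups, and the main test has no replicate block; the check of pairing and the fit with the block are given with the alternatives.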

Additional observations from a re-analysis of the deposited data

How the results depend on the processing

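The count of members past the threshold was 0 in each direction under every alternative tried, and the number whose interval lay within 1.5-fold was 17 to 19 when 1 library was left out. The number of all genes past the threshold, 3, was 16 without a filter, 23 with DESeq2, 1 with limma on log2(TPM + 1), with or without the filter, and 1 to 5 when 1 library was left out (1 without vehicle replicate 2, 5 without vehicle replicate 3). Members with an unadjusted p under 0.05, 2, numbered 0 without a composition factor, 1 at a mean of at least 5 log2 CPM, 1 with limma at either pseudocount or without the filter, and 0 to 2 with 1 library left out (0 without vehicle replicate 1 or tunicamycin replicate 2, 1 without replicate 3 of either group). Members whose groups did not overlap, 3, numbered 1 without a composition factor and 4 to 10 with 1 library left out, where smaller groups overlap less. With the replicate number as a block, 36 genes passed, also with Hspa1a and Hspa1b summed, and 6 when effective-length offsets joined the block. Of the genes passing, 0 were members. With the block and no offsets, 4 members had an unadjusted p under 0.05 by edgeR, with or without that sum. Shares of all genes at that p, or with groups not overlapping, were not counted under the alternatives, so these member counts have no background. With the block, the sum of Hspa1a and Hspa1b had a log2 fold change of 0.09 (0.00 to 0.19, unadjusted p 0.05, adjusted p 0.46, edgeR), against -0.44 to 0.62 without it; in each same-numbered pair the tunicamycin library had the higher sum. The evidence on pairing is mixed: deviations of same-numbered libraries correlated at 0.04, 0.19 and 0.11 over all tested genes, so 1 pair missed the minimum of 0.1, and at 0.32, 0.12 and 0.27 over well-counted genes, where none did. Every library correlated best with its own number, as a hint from the data and not the design. The ER median of -0.105 was -0.024 with limma on log2(TPM + 1), with or without the filter, and -0.261 to -0.103 with 1 library left out. The mitochondrial median of -0.015 was 0.116 with limma on log2(TPM + 1), with or without the filter, 0.123 on log2(TPM + 0.1), 0.06 with effective-length offsets, 0.064 with the replicate block and those offsets, and -0.036 to 0.028 with 1 library left out. The chaperonin and prefoldin median of -0.116 was -0.037 with limma on log2(TPM + 1), with or without the filter, -0.039 on log2(TPM + 0.1), and -0.139 to -0.049 with 1 library left out. The median of the cytosolic Hsp70 and Bag group, 0.111, was 0.258 on log2(TPM + 0.1) and -0.01 to 0.185 with 1 library left out; the lowest value was without vehicle replicate 1. The median over all tested members, -0.061, was -0.018 without a composition factor, 0.041 with limma on log2(TPM + 1), 0.022 without the filter, 0.045 on log2(TPM + 0.1), -0.026 with effective-length offsets, -0.015 with the replicate block and offsets, and -0.071 to -0.017 with 1 library left out. The cause of these shifts was not tested. Low counts limit Bag2, Dnajb3, Hspa12a, Hspa2, Fkbp11 and Dnajb14, and intervals cover the spread between technical libraries only.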
